A study of Homo sapiens with 8 samples.

Results

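The comparison described here set 2 libraries from cells infected with a short hairpin RNA (shRNA) against KLF9 beside 2 libraries from cells infected with a control shRNA, all labelled NCI-H146. NCI-H146 is an established human line from a small cell lung cancer. Its genes were taken as members when at least 2 of the 4 libraries had 10 or more counts, which kept 13194 of the 17169 genes in its count table. The whole series held 75603 gene rows in the tables of the 2 lines studied and 8 libraries, of which 4 belonged here. Both groups carried a lentiviral shRNA and had grown under puromycin for 2 weeks, so infection and drug selection were shared, and the groups differed by the hairpin (control genotype WT, knockdown genotype KLF9 knockdown). Poly(A) RNA was sequenced. The controls were numbered replicates 2 and 3 and the knockdowns replicates 1 and 2. The labels call the replicates biological but do not say whether they came from separate infections or separate dishes, so the p-values below measure the spread between these libraries, which may be partly technical. The hairpin sequences and the number of different hairpins are not stated in the labels, so an effect of the hairpin itself and an effect of KLF9 loss cannot be told apart.

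KLF9 belongs to the Krüppel-like factors (KLF), transcription factors that bind GC-rich and CACCC-type sequences through zinc fingers at their carboxyl end, as do the related SP factors. It is itself a target gene of glucocorticoid and thyroid hormone receptors, follows the circadian clock in several tissues, and can repress or activate through its amino-terminal part. In neurons and epithelia it is known for restraining proliferation and accompanying differentiation.

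The 4 libraries held 15406264 to 16109803 counts. Mitochondrially encoded genes took 0.907% and 1.20% of counts in the controls, 8.56% in knockdown replicate 1 and 0.897% in knockdown replicate 2. The 2 knockdown libraries differed from each other by at least 1 on the log2 scale at 1051 genes (7.97% of those tested), and the 2 controls at 184 (1.39%). The cell type named by the label was checked against neuroendocrine markers. Of the 4 such markers measured, NEUROD1, CHGA, SYP and NCAM1, the controls showed 0.202 to 1.48 CPM (counts scaled to equal library totals). The non-neuroendocrine markers YAP1 (39.5 and 45.9 CPM in the controls) and VIM (1812 and 1840 CPM) were well above them. The wider neuroendocrine list summed to 1279 and 1197 CPM in the controls, of which UCHL1, a ubiquitin hydrolase of neurons, made up 708 and 649 CPM. The 4 defining markers were thus low while other genes of that list were present, and the cells are called the libraries labelled NCI-H146 below. Epithelial KRT8 (155 and 111 CPM) and EPCAM (13.8 and 7.26 CPM) were measured in the controls, as was leukocyte PTPRC (13.3 and 12.1 CPM), whereas CD14, PECAM1 and HBB stood between 0 and 0.295 CPM in every library.

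KLF9 (chromosome 9, 70384604 to 70414657, RefSeq, GRCh38.p14) was lower in both knockdown libraries. Its level was 67.0 and 61.9 CPM in control replicates 2 and 3, and 24.9 and 32.3 CPM in knockdown replicates 1 and 2. The groups did not overlap, and both knockdown libraries kept a sizeable level of the transcript. KLF9 fell by 1.17 on the log2 scale (standard error, SE, 0.284, edgeR adjusted p = 0.0129). Against both controls, knockdown replicate 1 alone gave -1.37 and replicate 2 alone -0.97 (edgeR adjusted p = 0.000142 and 0.00390). The call did not survive the loss of a control, at -1.08 without control replicate 2 and -1.24 without control replicate 3 (edgeR adjusted p = 0.251 and 0.1004).

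Across all tested genes, 2259 of 13194 (17.1%) passed an edgeR adjusted p of 0.05 and are called changed. Of these, 1054 (7.99%) rose and 1205 (9.13%) fell in the KLF9 shRNA libraries, 859 and 979 of them by at least 1 on the log2 scale. The groups did not overlap at 8235 genes (62.4%). Each knockdown library was then set apart against the mean of the controls, with 0.5 CPM added. Replicate 1 had 507 genes higher and 1039 lower by at least 1 on the log2 scale, and replicate 2 had 1535 and 1468. In both libraries at once, 322 genes (2.44%) were that much higher and 636 (4.82%) that much lower, and 3 genes passed this size with opposite signs. Of the called genes, 640 that rose and 1013 that fell were also called in the same direction in both fits with 1 knockdown library. The number of calls rested heavily on the controls, being 46 (10 higher, 36 lower) without control replicate 2 and 490 (182 higher, 308 lower) without control replicate 3. It was 4971 without knockdown replicate 1 and 2635 without replicate 2.

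**Figure D1:**
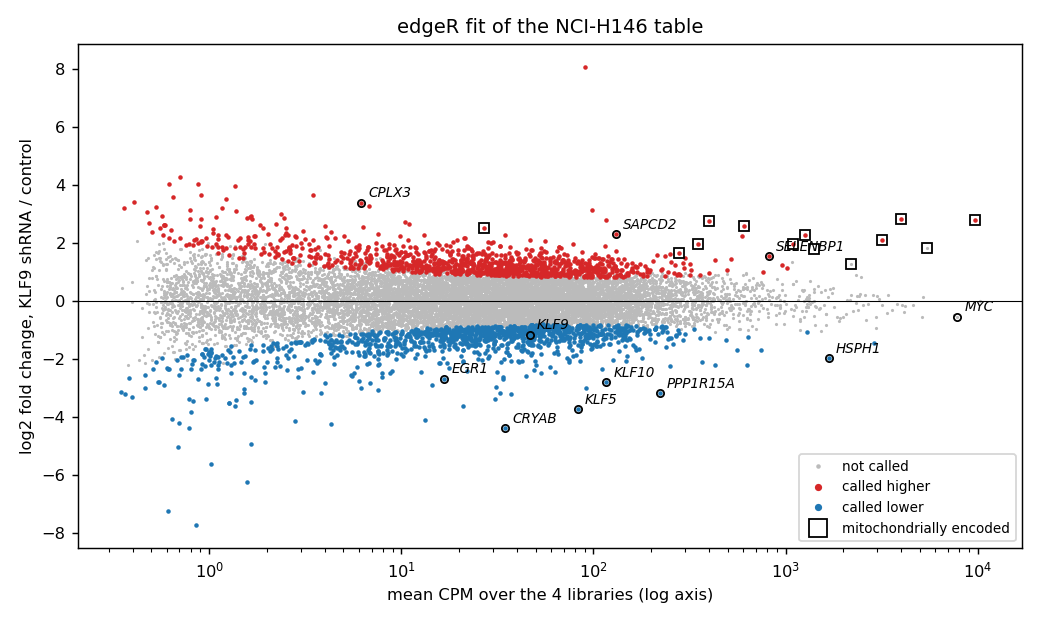
Mean level over the 4 libraries (CPM, log axis) against the fitted log2 fold change, KLF9 shRNA over control, for the 13194 tested genes. Red and blue points are the 1054 genes called higher and the 1205 called lower by edgeR, open squares the mitochondrially encoded genes, and labelled circles genes named in the text.

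Genes also differed by the GC content of their transcripts, a property that moved with the groups. From the lowest to the highest quartile of GC content (medians 39.1%, 44.9%, 52.4% and 60.8%), the median log2 fold change went through -0.47, -0.11, 0.21 and 0.46. The lowest quartile held 21 rises and 647 falls and the highest 608 rises and 96 falls. Both knockdown libraries showed this slope, from -0.38 to 0.20 in replicate 1 and from -0.54 to 0.58 in replicate 2, against -0.08 to 0.06 between the controls. The part of GC content in the results was not tested, so the counts of most gene groups below are given also from a fit with this trend taken out, in which 627 genes rose and 778 fell. Of the genes called before, 462 rises and 585 falls were called there too.

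**Figure D2:**
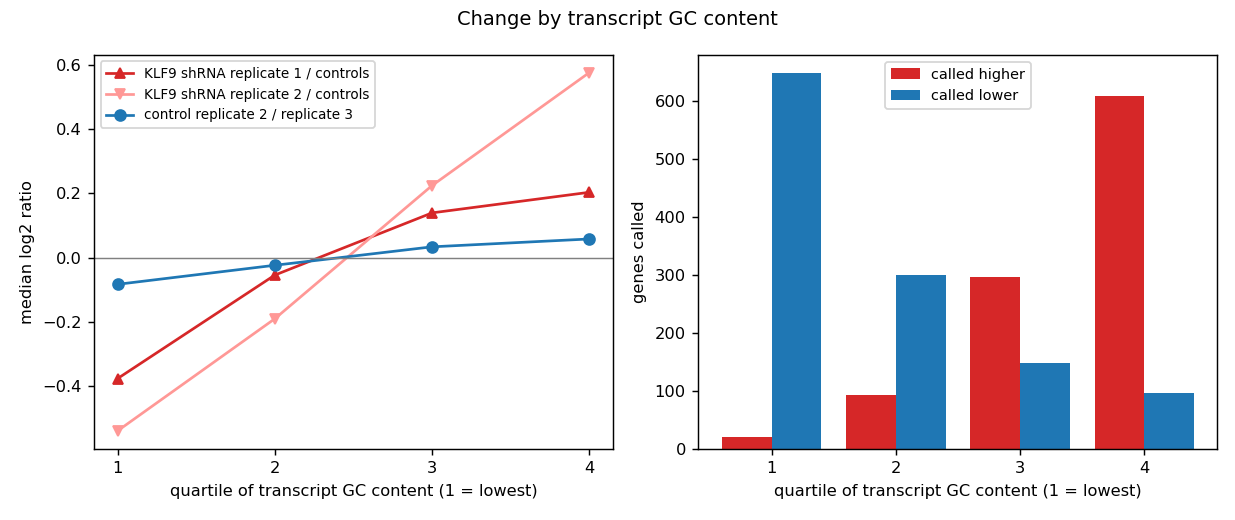
Left, median log2 ratio of the tested genes in each quartile of transcript GC content, for each knockdown library against the mean of the controls and for the 2 controls against each other. Right, number of genes called higher and lower in each quartile. In the knockdown libraries the median climbs from -0.38 and -0.54 to 0.20 and 0.58, and the called genes pass from 647 falls in the lowest quartile to 608 rises in the highest.

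The largest falls and rises were taken among called genes with groups apart and a log2 ratio of at least 1 in both knockdown libraries. Separation of the groups in them was therefore fixed by the choice. The largest falls were in genes of other Krüppel-like factors, stress proteins, signalling regulators and globins. CRYAB, a small heat shock protein gene, stood at 99.1 and 33.5 CPM in the controls and at 0 and 6.18 CPM in the knockdowns (log2 fold change -4.40 with SE 0.839, edgeR adjusted p = 0.00444). RBM47, an RNA-binding protein of epithelial cells, stood at 6.47 and 4.19 CPM against 0.135 and 0.437 CPM. It passed the filter on low counts only through the controls, with 2 and 7 counts in the knockdowns. RGS2, an inhibitor of Gq signalling, stood at 54.4 and 23.3 CPM against 2.23 and 3.996 CPM. In these 3 genes both knockdown libraries lay far below both controls. MXD1, which competes with MYC for its partner MAX, went from 80.3 and 54.2 CPM to 7.31 and 7.30 CPM (log2 fold change -3.20, edgeR adjusted p = 0.000119). TENT5C, a poly(A) polymerase, went from 15.8 and 11.2 CPM to 0.677 and 2.497 CPM. The alpha globin genes HBA2 (84.2 and 28.7 CPM against 3.25 and 7.49 CPM) and HBA1 (8.15 and 2.95 CPM against 0.744 and 0.499 CPM) are near-identical copies, so the split of reads between them is uncertain. Both globin genes were nearly 3-fold apart between the controls, and both knockdown libraries lay below the lower control. All 12 of the largest falls were called with the GC trend removed, 11 without control replicate 3 and 7 without control replicate 2.

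**Figure D3:**
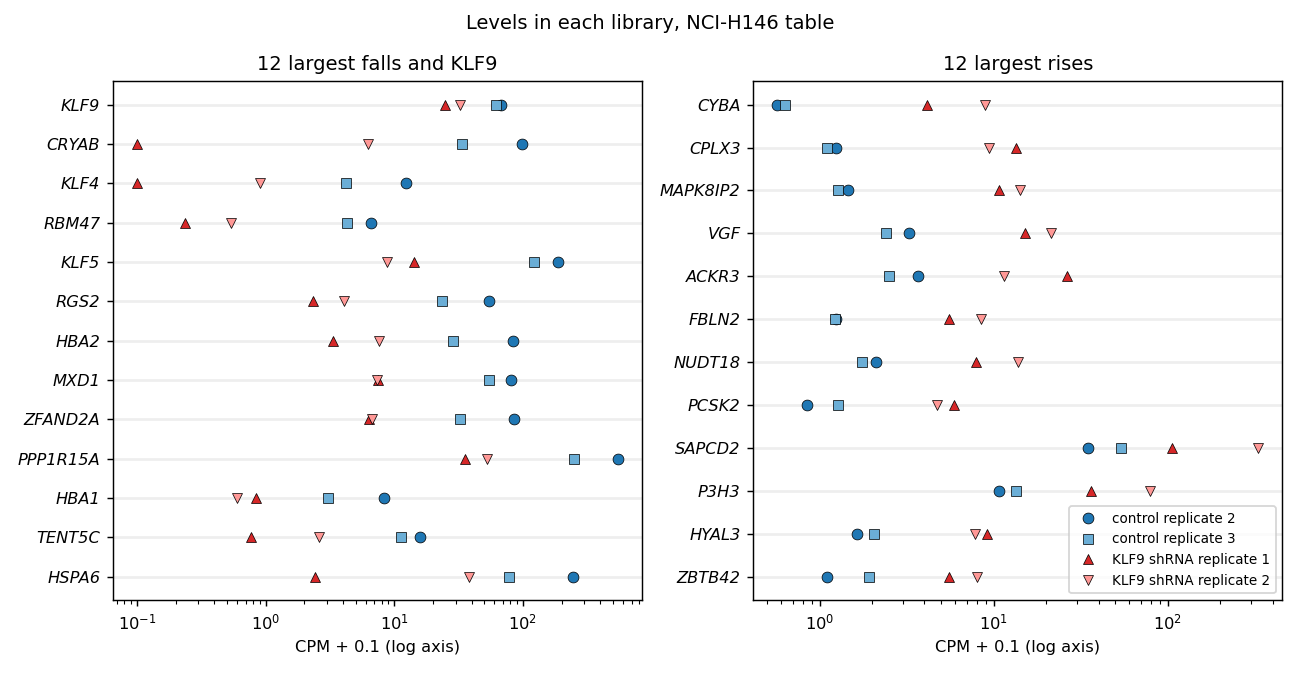
Level of KLF9, the 12 largest falls (left) and the 12 largest rises (right) in each library, as CPM with 0.1 added on a log axis. Each point is 1 library. The falls and rises were chosen to have both knockdown points on the same side of both control points, and KLF9, not so chosen, has them too. Control replicate 2 lies above control replicate 3 for all 12 falls.

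Besides KLF9, 19 KLF and SP factors were tested, of which 9 fell and 1 rose, with a median log2 fold change of -0.70 against 0.0049 over all tested genes. With all libraries fitted together 9.13% of tested genes fell and 7.99% rose, and list counts from that fit are to be read beside these shares. Counts with the GC trend removed are to be read beside 778 falls and 627 rises of 13194. List counts from fits without a control are to be read beside the far smaller totals of those fits given above. With so few calls over all genes, a lack of calls there says little about a list. In knockdown replicates 1 and 2 the list's median ratios were -0.75 and -0.82. KLF5, a factor of proliferating epithelium, stood at 187 and 121 CPM in the controls and at 14.2 and 8.74 CPM in the knockdowns (log2 fold change -3.75 with SE 0.349, edgeR adjusted p = 6.36e-05). KLF10, first described as a gene induced by TGF-beta, stood at 197 and 212 CPM against 33.0 and 25.5 CPM (log2 fold change -2.81, edgeR adjusted p = 0.000128). Its relative KLF11 stood at 75.5 and 76.2 CPM against 24.6 and 28.4 CPM (log2 fold change -1.52, edgeR adjusted p = 0.00378). KLF10 and KLF11 had controls close to each other and knockdowns well below, while KLF5 had a wider gap between its controls. KLF4, known from reprogramming and epithelial differentiation, went from 12.2 and 4.13 CPM to 0 and 0.812 CPM. KLF6, KLF7, KLF3, SP2 and SP9 also fell, by 0.92 to 1.55 on the log2 scale. Among the rest, KLF13, a close relative of KLF9, stood at 28.9 and 36.8 CPM in the controls and 29.9 and 39.5 CPM in the knockdowns, so its groups overlapped, and KLF15 and KLF12 overlapped likewise. SP6 rose from 0.674 and 1.71 CPM to 2.84 and 6.81 CPM. With the GC trend removed, 8 of the list fell and 0 rose, KLF3 and SP6 losing their calls, and 2 fell without control replicate 2.

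In a list of 11 tested genes linked to KLF9 in other tissues, 2 fell and 1 rose (3 and 1 with the GC trend removed), with a median of 0.011. PPARGC1A, a coactivator of mitochondrial gene programmes, went from 55.5 and 65.3 CPM to 15.7 and 12.8 CPM (log2 fold change -2.08, edgeR adjusted p = 0.00105). CYP1A1, a monooxygenase induced through the aryl hydrocarbon receptor, went from 29.8 and 59.2 CPM to 11.03 and 20.8 CPM. TXNRD2, the mitochondrial thioredoxin reductase, went from 20.7 and 17.9 CPM to 38.1 and 71.5 CPM. In all 3 the groups stood apart, although the 2 controls of CYP1A1 and the 2 knockdowns of TXNRD2 were nearly 2-fold apart. NOTCH1, ITGA6 and BCL2 had overlapping groups and log2 fold changes of 0.02, 0.01 and 0.29, and none of the 3 was called.

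Immediate early genes are switched on within minutes of a growth or stress signal, many of them by serum response factor at CArG boxes or by CREB at cAMP response elements. Of the 38 tested, 21 fell and 1 rose, with a median log2 fold change of -1.06 and median ratios of -1.27 and -0.98 in knockdown replicates 1 and 2. With the GC trend removed 25 fell and 0 rose. The 2 controls were not alike in this list, replicate 2 being higher by a median of 0.50, and without it the median was -0.73 and 4 genes fell. The RefSeq promoter windows of EGR1 (plus strand, chr5:138465349-138465430) and PPP1R15A (plus strand, chr19:48872338-48872395) on GRCh38.p14 are shown because they hold, in capitals, CArG-type CCNTATNNG matches and the cAMP response element TGACGTCA, and lie upstream of the 2 genes whose values follow.
EGR1: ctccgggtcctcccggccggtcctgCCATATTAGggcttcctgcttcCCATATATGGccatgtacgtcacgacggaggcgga
PPP1R15A: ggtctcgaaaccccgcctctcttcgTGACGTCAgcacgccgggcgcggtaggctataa
The second EGR1 run in capitals is a match on both strands that overlap.

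EGR1, a zinc-finger factor, went from 37.7 and 20.3 CPM to 5.41 and 3.62 CPM (log2 fold change -2.68, edgeR adjusted p = 0.000934). PPP1R15A, which directs a phosphatase to eIF2 alpha, went from 549 and 248 CPM to 35.5 and 52.7 CPM (log2 fold change -3.18, edgeR adjusted p = 0.000357). Both had controls about 2-fold apart and knockdowns far below either. The AP-1 subunits FOS (36.0 and 14.8 CPM against 1.76 and 4.93 CPM) and FOSB (29.03 and 13.9 CPM against 3.72 and 4.06 CPM) fell, and JUN (266 and 178 CPM against 70.5 and 107 CPM) fell less. FOSL1, JUNB and JUND were not called. Orphan nuclear receptor NR4A2 went from 12.8 and 9.15 CPM to 1.69 and 1.06 CPM, and its family member NR4A3 fell by 2.84 on the log2 scale. Their relative NR4A1 stood at 123 and 94.2 CPM against 77.6 and 97.3 CPM, with overlapping groups. The mRNA decay factors ZFP36, ZFP36L1 and ZFP36L2 all fell, ZFP36L1 from 110 and 132 CPM to 35.4 and 20.8 CPM, and CITED2, a CBP-binding regulator, went from 205 and 166 CPM to 42.4 and 30.3 CPM. EGR4, the member that rose, was near the floor of detection, at 0.135 and 0 CPM against 0.677 and 0.624 CPM. It passed the filter on low counts only through the knockdowns and was not called with the GC trend removed.

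Feedback inhibitors that follow growth factor signalling moved likewise in part. Of 19 tested MAPK feedback genes 7 fell and 0 rose (8 and 0 with the GC trend removed), with a median of -0.60. DUSP8, a phosphatase for stress kinases, went from 103 and 49.9 CPM to 10.4 and 14.8 CPM (log2 fold change -2.60, edgeR adjusted p = 0.000930). ERRFI1, an inhibitor of the EGF receptor, went from 53.3 and 44.8 CPM to 17.1 and 17.4 CPM, and DUSP6, which inactivates ERK, fell by 2.16 on the log2 scale. Among 15 cAMP and CREB response genes 3 fell (5 with the GC trend removed), RGS2, the phosphodiesterase PDE4B (9.90 and 9.56 CPM against 1.49 and 2.497 CPM) and the CREB coactivator CRTC2 (89.8 and 91.5 CPM against 53.3 and 33.3 CPM). Neither of these lists held a rise, and without control replicate 2 the MAPK feedback list held 0 falls (edgeR, 5 at an unadjusted p under 0.05).

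The circadian clock rests on BMAL1 and CLOCK, which activate their own repressors through E-boxes. Of 18 tested clock genes 8 fell and 0 rose, both before and after removal of the GC trend, with a median of -0.70 and median ratios of -0.75 and -0.73 in the 2 knockdown libraries. The RefSeq promoter window of CIART (plus strand, chr1:150282400-150282527, GRCh38.p14) is shown because it holds 3 E-box matches, CACGTG, in capitals.
CIART: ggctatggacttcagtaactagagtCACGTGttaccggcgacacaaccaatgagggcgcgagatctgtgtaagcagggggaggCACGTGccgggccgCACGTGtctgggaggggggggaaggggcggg
CIART, a repressor of BMAL1 and CLOCK, went from 13.3 and 10.4 CPM to 4.26 and 2.497 CPM (log2 fold change -1.81, edgeR adjusted p = 0.00702). NR1D1, the repressor also called REV-ERB alpha, went from 108 and 56.8 CPM to 15.8 and 15.4 CPM (log2 fold change -2.40, edgeR adjusted p = 0.000930). Its partner NR1D2 stood at 44.1 and 50.4 CPM in the knockdowns against a control mean of 148 CPM. BMAL1 itself went from 15.1 and 9.68 CPM to 2.30 and 3.06 CPM. In these 4 genes no knockdown library reached a control. PER2, BHLHE40, NFIL3 and RORA also fell, RORA not with the GC trend removed, while CLOCK, CRY1, CRY2, DBP and TEF were not called and CRY2 stood at 16.6 and 16.6 CPM in the controls against 11.8 and 22.2 CPM. Without control replicate 2, 0 clock genes were called (edgeR, 6 falls at an unadjusted p under 0.05, median -0.60).

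KLF9 is itself a glucocorticoid-induced gene, and of 21 tested genes of that kind 11 fell, KLF9 included, and 0 rose (12 and 0 with the GC trend removed), with a median of -0.89. PDK4, which turns off pyruvate oxidation, went from 25.1 and 27.0 CPM to 6.70 and 5.06 CPM (log2 fold change -2.15, edgeR adjusted p = 0.00137). TSC22D3, also known as GILZ, went from 156 and 99.8 CPM to 28.8 and 62.9 CPM, and the receptor gene NR3C1 from 34.2 and 38.7 CPM to 13.9 and 16.3 CPM, a call lost with the GC trend removed. FKBP5, a classical receptor target, stood at 90.0 and 123 CPM against 167 and 143 CPM and was not called. Of 20 growth arrest genes linked to FOXO factors 9 fell and 0 rose (7 and 0 with the GC trend removed), with a median of -0.79. The lists share members, which are counted in each. BCL6 is in the glucocorticoid and FOXO lists and CITED2 in the immediate early and FOXO lists. ERRFI1 is in the MAPK feedback and glucocorticoid lists and PPP1R15A in the immediate early and unfolded protein lists. BCL6, a transcriptional repressor, went from 47.9 and 42.3 CPM to 12.4 and 10.5 CPM, the pseudokinase gene TRIB1 from 97.0 and 62.6 CPM to 20.6 and 17.7 CPM, and FOXO1 itself from 53.6 and 51.9 CPM to 28.8 and 19.6 CPM. Of 16 NF-kB subunits and targets 7 fell and 0 rose (9 and 0 with the GC trend removed). Subunit gene REL went from 40.9 and 73.2 CPM to 14.8 and 16.5 CPM and the feedback deubiquitinase TNFAIP3 from 11.1 and 10.6 CPM to 2.03 and 2.75 CPM. Without control replicate 2 each of these 3 lists held 1 call, with medians of -0.59, -0.60 and -0.52.

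Heat shock proteins keep other proteins folded and are induced by heat shock factor. Of 30 tested chaperone and co-chaperone genes 14 fell and 0 rose (11 and 0 with the GC trend removed), with a median of -0.75 and median ratios of -1.08 and -0.83 in knockdown replicates 1 and 2. This list differed between the controls by more than its fitted median, control replicate 2 being higher by a median of 0.86. Without control replicate 2 the median was -0.22 and 1 gene, ZFAND2A, was called, and without control replicate 3 the median was -1.16 and 12 were called. The RefSeq promoter windows of HSPA6 (plus strand, chr1:161524335-161524503) and HSPB1 (plus strand, chr7:76302466-76302523) on GRCh38.p14 are shown because both hold GAANNTTC, a pair of inverted heat shock element repeats, in capitals.
HSPA6: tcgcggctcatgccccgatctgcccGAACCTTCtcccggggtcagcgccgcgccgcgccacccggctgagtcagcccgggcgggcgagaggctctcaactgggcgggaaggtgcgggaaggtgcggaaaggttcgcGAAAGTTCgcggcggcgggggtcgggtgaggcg
HSPB1: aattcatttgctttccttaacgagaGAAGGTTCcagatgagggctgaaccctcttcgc
HSPA6, a strictly inducible HSP70 gene with a near-identical copy that may share its reads, went from 246 and 78.5 CPM to 2.30 and 37.7 CPM (log2 fold change -3.01, edgeR adjusted p = 0.0140). HSPB1 went from 1635 and 631 CPM to 358 and 346 CPM, and HSPH1, a nucleotide exchange factor of HSP70, from 3601 and 1741 CPM to 720 and 636 CPM. DNAJB1, a J-domain partner of HSP70, went from 1039 and 370 CPM to 120 and 185 CPM, and the collagen chaperone SERPINH1 from 1506 and 572 CPM to 166 and 283 CPM. In each of these 5 genes the 2 controls were more than 2-fold apart and both knockdowns lay below the lower control. HSP90AA1 fell from 5790 and 2670 CPM to 1794 and 1272 CPM, a call lost with the GC trend removed (edgeR adjusted p = 0.0377 before and 0.0642 after).

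Genes of the unfolded protein response and of ATF4 fell in smaller number, 10 of 35 with 0 rises (10 and 0 with the GC trend removed), with a median of -0.47. HERPUD1, which takes part in degradation at the endoplasmic reticulum, went from 837 and 357 CPM to 121 and 156 CPM, and the J-protein gene DNAJB9 from 86.4 and 44.1 CPM to 13.3 and 17.7 CPM. XBP1, a transcription factor of that response, went from 773 and 359 CPM to 248 and 214 CPM, a call lost with the GC trend removed (edgeR adjusted p = 0.0830). Here too control replicate 2 was the higher of the controls, by a median of 0.55 over the list, and without it the median was -0.25 with 1 call. Of 33 genes of cholesterol and fatty acid synthesis 10 fell and 2 rose (7 and 1 with the GC trend removed), around a median of -0.10. INSIG1, which holds back sterol regulatory proteins, went from 109 and 56.4 CPM to 16.6 and 18.9 CPM (log2 fold change -2.22, edgeR adjusted p = 0.00121), and the synthase gene HMGCS1 from 135 and 89.4 CPM to 29.4 and 45.8 CPM. LSS, which closes the sterol ring, and PMVK, the phosphomevalonate kinase, were the rises, LSS from 44.3 and 55.2 CPM to 95.9 and 149 CPM. With the GC trend removed PMVK was not called. Without control replicate 2 the list held 0 calls (edgeR, 2 rises and 7 falls at an unadjusted p under 0.05) and a median of -0.05, and without control replicate 3 it held 5 falls and 0 rises and a median of -0.37. Among 31 TGF-beta and BMP response genes 8 fell, KLF10, KLF11 and ID2 among them, and 2 rose, BMP7 and BAMBI (6 and 1 with the GC trend removed, BAMBI not called). This list held 1 fall without control replicate 2 and 5 falls without control replicate 3, with medians of -0.52 and -0.46.

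Of the 12 largest rises, chosen by the same rule as the falls, 4 belonged to the neuroendocrine or synaptic gene lists. CPLX3, a complexin of ribbon synapses, stood at 1.15 and 1.00 CPM in the controls and at 13.3 and 9.24 CPM in the knockdowns (log2 fold change 3.38 with SE 0.421, edgeR adjusted p = 0.000420). MAPK8IP2, a scaffold for JNK signalling in neurons, stood at 1.35 and 1.18 CPM against 10.6 and 14.1 CPM. VGF, a neuropeptide precursor, stood at 3.17 and 2.30 CPM against 15.0 and 21.2 CPM. PCSK2, the convertase that cuts prohormones, stood at 0.741 and 1.18 CPM against 5.82 and 4.62 CPM. The controls of PCSK2 were further apart than those of the other 3 genes, and in all 4 genes both knockdown libraries stood several times above either control. CYBA, a subunit of NADPH oxidase, rose from 0.471 and 0.531 CPM to 4.06 and 8.87 CPM, and ACKR3, an atypical receptor for CXCL12, from 3.57 and 2.42 CPM to 26.3 and 11.4 CPM. CYBA passed the filter on low counts only through the knockdowns, with 7 and 9 counts in the controls. It was therefore not tested in the fits with 1 knockdown library. SAPCD2, which helps to orient the mitotic spindle, showed the highest level among the 12 largest rises, at 34.7 and 54.0 CPM in the controls and 105 and 331 CPM in the knockdowns. Its knockdown libraries were about 3-fold apart. All 12 were called with the GC trend removed and without control replicate 3, and 5 without control replicate 2 (CYBA, CPLX3, MAPK8IP2, VGF and ACKR3).

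Of 22 tested neuroendocrine and secretory granule genes 8 rose and 1 fell, with the same counts after removal of the GC trend and a median of 0.32. The marker SYP rose from 1.48 and 1.48 CPM to 4.06 and 9.30 CPM (log2 fold change 2.17, edgeR adjusted p = 0.00739). CHGA, the chromogranin used to diagnose neuroendocrine tumours, rose from 0.202 and 0.531 CPM to 2.44 and 3.12 CPM, and CHGB from 5.19 and 6.97 CPM to 16.4 and 11.4 CPM, CHGB not being called with the GC trend removed. CHGA passed the filter on low counts only through the knockdowns, with 3 and 9 counts in the controls, and was not tested with 1 knockdown library. PTPRN, a granule membrane protein, went the other way, from 2.16 and 1.71 CPM to 0.0677 and 0.437 CPM. PTPRN passed the filter on low counts only through the controls. Even after these rises CHGA and SYP stayed below 10 CPM, and NEUROD1 (0.606 and 0.649 CPM against 0.406 and 0.125 CPM) and NCAM1 did not pass the filter on low counts. Of 39 synaptic and neuronal genes 8 rose and 1 fell (7 and 1 with the GC trend removed). NEFL, a neurofilament subunit, rose from 108 and 98.6 CPM to 248 and 181 CPM, and CAMKV from 8.22 and 11.1 CPM to 28.6 and 37.3 CPM, whereas the presynaptic scaffold gene PCLO fell from 27.3 and 37.2 CPM to 9.68 and 7.68 CPM. Without control replicate 2, 1 neuroendocrine gene rose, and 3 synaptic genes rose and 1 fell. REST, which represses neuronal genes outside neurons, went from 52.1 and 61.3 CPM to 20.5 and 28.2 CPM (log2 fold change -1.22, edgeR adjusted p = 0.0126), a call lost with the GC trend removed (edgeR adjusted p = 0.0799).

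Genes of S phase and DNA replication leaned upward. Of 48 tested 9 rose and 0 fell, with the same counts after removal of the GC trend, a median of 0.52 and median ratios of 0.61 and 0.29 in knockdown replicates 1 and 2. UHRF1, which recruits DNA methyltransferase to new DNA, went from 43.3 and 52.7 CPM to 101 and 153 CPM (log2 fold change 1.40, edgeR adjusted p = 0.00717). The helicase subunits MCM3, MCM5, MCM6 and MCM7 rose by 0.97 to 1.12 on the log2 scale, MCM5 from 87.9 and 71.0 CPM to 190 and 155 CPM. MCM3 and MCM6 were also called with the GC trend removed, and MCM5 and MCM7 were not (edgeR adjusted p = 0.0680 and 0.151). Genes of G2 and M phase did not follow, with 2 rises and 3 falls among 52 (1 and 0 with the GC trend removed) and a median of -0.27. CENPM, a centromere protein gene, rose, and the checkpoint kinase gene TTK went from 72.3 and 56.7 CPM to 34.1 and 21.04 CPM, a fall not called with the GC trend removed (edgeR adjusted p = 0.0512). Both lists held 0 calls by edgeR without control replicate 2, with 7 rises and 1 fall of S phase genes and 2 rises and 3 falls of G2 and M phase genes at an unadjusted p under 0.05.

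Of 77 tested nuclear genes of the respiratory chain 12 rose and 0 fell (9 and 0 with the GC trend removed), with a median of 0.58. The median ratio was 0.35 in replicate 1 and 0.71 in replicate 2, and 12 rose in the fit with replicate 1 alone against 49 with replicate 2 alone. Over all tested genes the same fits gave 1119 and 2572 rises. ATP5MC1, a subunit of the ATP synthase ring, stood at 40.3 and 36.6 CPM under control shRNA, 65.8 CPM in replicate 1 and 136 CPM in replicate 2. NDUFA8, of complex I, stood at 24.5 and 22.7 CPM in the controls and 39.5 and 84.3 CPM in the knockdowns. Both genes were higher in both knockdown libraries, replicate 2 being about 2 times replicate 1. No gene of this list was called by edgeR without control replicate 2 or without control replicate 3 (16 and 7 rises at an unadjusted p under 0.05), and its median was 0.71 without control replicate 2 and 0.40 without control replicate 3. Cytosolic ribosomal proteins had 2 rises and 0 falls among 79 (0 and 1 with the GC trend removed) and a median of 0.024, both rises standing on replicate 2, with RPS21 at 132 and 109 CPM in the controls against 119 and 579 CPM.

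The 13 genes encoded by mitochondrial DNA, subunits of the same complexes, showed the opposite split. In the joint fit 10 rose and 0 fell, with a median of 2.10, but the median ratio was 2.96 in knockdown replicate 1 and -0.14 in replicate 2. These 13 genes had no GC value, so no trend was taken out of them in the fit with the GC trend removed. There 8 rose and 0 fell, with the same median of 2.10. COX1 (MT-CO1), of cytochrome c oxidase, stood at 2091 and 2781 CPM under control shRNA, 30940 CPM in replicate 1 and 3108 CPM in replicate 2. CYTB (MT-CYB), of complex III, stood at 426 and 471 CPM under control shRNA, 3007 CPM in replicate 1 and 453 CPM in replicate 2. Replicate 1 stood apart for these genes, while replicate 2 lay near the controls. With replicate 1 alone all 13 rose, and with replicate 2 alone 0 rose and 3 fell. Leaving out these genes changed the total of called genes from 2259 to 2202.

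**Figure D4:**
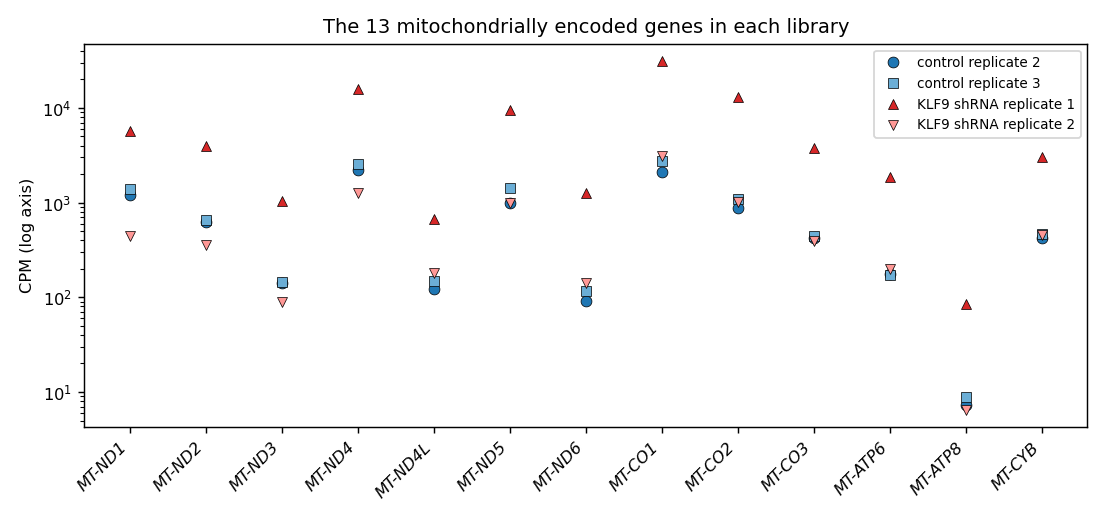
Level (CPM, log axis) of each of the 13 mitochondrially encoded genes in each library. Knockdown replicate 1 lies above the other 3 libraries for every gene, for MT-CO1 at 30940 CPM against 2091, 2781 and 3108 CPM.

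Other lists held few calls or calls in both directions, beside shares of 7.99% called higher and 9.13% called lower over all tested genes in the joint fit. With the GC trend removed, 627 of 13194 tested genes were called higher and 778 lower. None of 29 interferon-stimulated genes was called by edgeR in the joint fit (3 higher and 1 lower at an unadjusted p under 0.05, 0 called by DESeq2 or limma-voom, 1 fall with the GC trend removed), and with 1 knockdown library at a time 0 rose and 1 fell in replicate 1 and 4 rose and 5 fell in replicate 2. Glycolysis and hypoxia genes had 2 rises and 4 falls among 37 (0 and 6 with the GC trend removed), the falls including NDRG1 (75.4 and 55.3 CPM against 15.0 and 24.04 CPM). The Notch list had 4 rises and 4 falls among 24 (0 and 3 with the GC trend removed), with JAG2, a ligand gene, rising from 61.6 and 72.2 CPM to 115 and 248 CPM (edgeR adjusted p = 0.0537 with the GC trend removed) and the coactivator gene MAML2 falling. WNT pathway genes likewise had 4 rises and 4 falls among 35 (3 and 2 with the GC trend removed), with the receptor gene FZD8 rising from 15.5 and 13.6 CPM to 36.1 and 47.5 CPM. Mesenchymal transition genes had 1 rise and 5 falls among 19, with the same counts after removal of the GC trend. Among those falls were SNAI1, a repressor of epithelial cadherin (119 and 74.5 CPM against 33.0 and 22.4 CPM), ZEB1 (24.7 and 27.9 CPM against 9.20 and 4.18 CPM) and the matrix gene THBS1 (75.6 and 35.1 CPM against 3.79 and 10.2 CPM). CDH1, the epithelial cadherin gene, was low throughout and rose from 0.471 and 0.826 CPM to 2.98 and 2.12 CPM. The other epithelial markers EPCAM, KRT8 and KRT18 were not called (log2 fold changes 0.56, 0.27 and 0.09), nor was VIM (-0.84). Epithelial adhesion and keratin genes had 3 rises and 1 fall, RBM47, among 20 (3 and 2 with the GC trend removed), with a median of 0.12. The subtype factor list had 3 rises and 1 fall among 8 (1 and 1 with the GC trend removed), with ASCL2, a basic helix-loop-helix factor, rising from 8.42 and 8.56 CPM to 29.2 and 27.2 CPM.

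**Figure D5:**
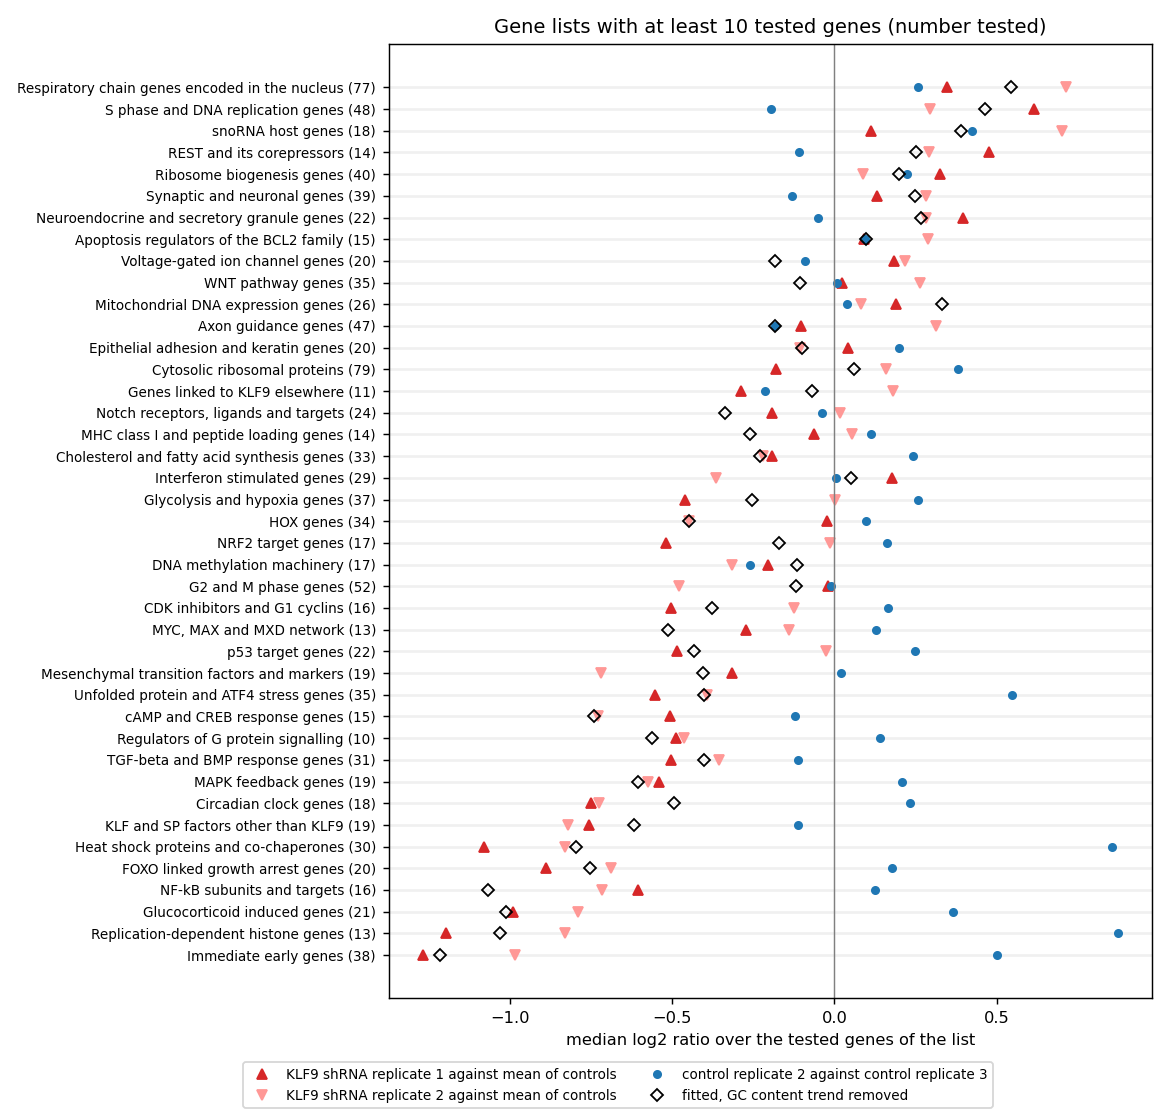
Median log2 ratio over the tested genes of each list with at least 10 tested genes, for each knockdown library against the mean of the controls, for control replicate 2 against control replicate 3, and for the fit with the GC trend removed. Immediate early genes lie lowest by the GC-removed fit, and for the heat shock list the blue point of the controls lies at 0.86, beyond the size of the fitted median of -0.75.

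Among the most abundant genes outside the mitochondrial genome, TUBB4B, a beta tubulin, rose from 670 and 609 CPM to 1330 and 1474 CPM, and SELENBP1, a selenium-binding protein gene, from 403 and 436 CPM to 1067 and 1378 CPM. TUBB4B lost its call with the GC trend removed (edgeR adjusted p = 0.158), and SELENBP1 kept it. FTL, the ferritin light chain gene, fell from 1963 and 1546 CPM to 764 and 895 CPM, and CCNI, an atypical cyclin gene, from 971 and 837 CPM to 423 and 333 CPM. In FTL and CCNI the 2 controls were close to each other and both knockdowns lay well below them. FTL was near the threshold (edgeR adjusted p = 0.0494) and lost its call with size factors of DESeq2 (edgeR adjusted p = 0.0564). The calls of TUBB4B, SELENBP1, FTL and CCNI were all lost without control replicate 2.

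Promoters of the tested genes were searched on both strands from 250 bases before to 50 after the RefSeq start site, which 10647 of the 13194 genes had. The KLF-type sequence CACGCCC was in 13.3% of all these promoters, 13.3% of those of genes called higher and 13.8% of those called lower. CACACCC was in 7.01%, 8.51% and 7.09%, and the GC box GGGCGG in 70.9%, 72.7% and 70.5%. These shares differed little between called genes and all genes. The heat shock pair GAANNTTC was in 4.55% of all promoters and in 30.8% (4) of the 13 heat shock list genes that fell and had a promoter. CArG-type CCNTATNNG was in 4.43% of all and 12.5% (2) of the 16 immediate early genes that fell and had a promoter. The cAMP response element TGACGTCA was in 3.42% of all and in 1 of these 16, PPP1R15A. The E-box CACGTG was in 10.3% of all and 25% (2) of the 8 clock genes that fell. Shares among list genes that did not fall were not computed, so whether these sequences go with the falls was not tested. A match describes letters in a window and not the binding of a factor.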

How the data were processed

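The authors deposited whole-number read counts per gene for NCI-H146, per the file headers and the values, while the NCI-H1688 table was deposited in TPM and entered no comparison here. Per the submitters' processing notes, STAR 2.5.1, DESeq2 and GRCh38 (hg38) were used. The counting program, its strand setting and the annotation are not given in the sources used here, so reads of overlapping or near-identical genes may be shared, and 142 tested genes with at least 100 counts in total had the same 4 counts as another gene. The smallest total of any gene was 2 counts.

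Genes with at least 10 counts in 2 of 4 libraries were fitted with edgeR 4.0.16 (quasi-likelihood F test, TMM) in R 4.3.3, with Benjamini-Hochberg adjustment over all 13194 genes and a threshold of 0.05. CPM are counts scaled to TMM library totals, and a standard error is the fold change divided by the square root of F. Fits on simulated counts were checked first. Alternatives were size factors of DESeq2 1.42.0, total counts, filterByExpr, no filter, DESeq2, limma-voom (limma 3.58.1), mitochondrially encoded genes left out, and each library left out. Removal of a GC content trend, alone or with length, and the joint loss of knockdown replicate 1 and the mitochondrially encoded genes were added after seeing the data. Transcript lengths and GC content are from GENCODE 29, known for 97.5% of tested genes, and gene coordinates and promoter sequences from RefSeq (GRCh38.p14).

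Named genes are KLF9, the 12 largest rises and falls among called protein-coding genes that reach 1 on the log2 scale in both knockdown libraries, with groups apart and at least 5 CPM in the higher group, the 10 called genes with the highest level in each direction, up to 3 called members of each of 50 gene lists, and cell type markers. Not all of these are printed, and other members are named to fill out their lists. The members, lists and rules were chosen with earlier results of these data known.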

Additional observations from a re-analysis of the deposited data

How the results depend on the processing

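No paired analysis was possible because the groups share only replicate number 2. Called genes numbered 2259 (1054 higher, 1205 lower). Size factors of DESeq2, filterByExpr, no filter, DESeq2, limma-voom and leaving out mitochondrially encoded genes gave 1678 to 2341. Scaling by total counts gave 1296 (511 and 785), removal of the GC content trend 1405 (627 and 778), of GC content and length trends 1203 (506 and 697), and leaving out knockdown replicate 1 with the mitochondrially encoded genes 4967 (2572 and 2395). Leaving out 1 library gave 46 to 4971 calls, 10 to 2572 higher and 36 to 2399 lower, the extremes being those without control replicate 2 and without knockdown replicate 1. With 1 library in a group, its spread is assumed to equal that of the other group. The KLF9 log2 fold change ranged from -1.37 to -0.97 with a library left out, was not called without either control, and was called in every other setting tried. With a library left out, ND5 ranged from -0.28 to 2.96 and COX3 from -0.11 to 3.13, both negative without knockdown replicate 1, and RPS21 from -0.015 without knockdown replicate 2 to 2.28 without replicate 1. None of the 3 negative values was called. With 2 libraries a group, differences of low genes were not detectable at this depth unless large.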

Other observations

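MYC was chosen for mention after its values were seen. It was one of the most abundant transcripts, at 9971 and 8556 CPM under control shRNA, 7990 CPM in the first knockdown and 4719 CPM in the second, and was not called (log2 fold change -0.54, edgeR adjusted p = 0.437). PVT1, the noncoding gene next to it, rose from 228 and 241 CPM to 345 and 908 CPM (log2 fold change 1.42, edgeR adjusted p = 0.0222), a call lost with the GC trend removed (edgeR adjusted p = 0.0505). PCAT1, a noncoding gene on the other side of MYC, stood at 24.3 and 33.2 CPM against 45.9 and 161 CPM, with counts identical to those of an overlapping gene. POU5F1B, also near MYC, rose from 4.51 and 3.96 CPM to 13.1 and 15.4 CPM. In PVT1 and PCAT1 the rise was larger in knockdown replicate 2, the library in which MYC was lowest, and in POU5F1B both knockdown libraries were high. Not all neighbours rose. LOC101927657 fell from 2.02 and 1.12 CPM to 0.338 and 0.312 CPM (log2 fold change -2.24, edgeR adjusted p = 0.0206). This gene was near the floor of detection and passed the filter on low counts only through the controls. CASC11 stood at 5.32 and 7.14 CPM against 9.001 and 8.30 CPM, CYRIB at 79.8 and 87.2 CPM against 62.6 and 39.96 CPM, and ASAP1 at 36.9 and 52.1 CPM against 48.9 and 20.5 CPM, and these 3 were not called. CDX2, an intestinal homeobox factor also chosen after its values were seen, stood at 3624 and 3063 CPM against 3037 and 3025 CPM and was not called.

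Replication-dependent histone transcripts, which mostly lack a poly(A) tail, took 0.00978% and 0.00558% of control counts and 0.00253% and 0.00378% of knockdown counts. Of 13 tested 4 fell and 0 rose, with a median of -1.02, or -0.32 without control replicate 2. H2BC21, a polyadenylated member, went from 48.9 and 25.1 CPM to 6.63 and 7.12 CPM (log2 fold change -2.42, edgeR adjusted p = 0.00118). HOX genes had 3 falls and 0 rises among 34, and 6 and 0 with the GC trend removed. Before that removal their share of falls was near the 9.13% of all tested genes. After it, 778 of 13194 tested genes fell. The genes higher in knockdown replicate 2 than in replicate 1 by at least 1 on the log2 scale (664) had a median GC content of 59.8%, and those higher in replicate 1 (387) one of 44.4%.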
